A study of Mus musculus with 4 samples.

Results

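Hair follicle cells of the bulge and outer root sheath were picked out of a single-cell RNA-seq table of mouse back skin by the RNA that each cell barcode held. A barcode was kept when at least 200 genes were detected and at most 10% of its UMIs (unique molecular identifiers, 1 for each captured RNA molecule) came from mitochondrial genes. It was taken as a keratinocyte when at least 4 of the 8 genes Krt5, Krt14, Perp, Dsp, Sfn, Trp63, Pkp1 and Cdh1 were detected, and more of them than of the 8 fibroblast genes Pdgfra, Dpt, Lum, Mfap5, Serpinf1, Col1a2, Dcn and Pcolce. It was taken as a follicle cell when Lhx2, Tbx1 and Fgf18 together had at least 2 UMIs and when Krt79 and Sostdc1, which mark the follicle opening and other follicle or epidermal cells, each made under 5 UMIs in 10000. These rules gave 267 follicle cells among 22819 kept barcodes of 23455 in all, beside 9309 other keratinocytes. The cells were thus chosen by their measured UMIs of these genes, so everything that sets them apart from other keratinocytes is given as a description.

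The study compared skin labelled Ovol1 null with control skin, each untreated or treated with imiquimod (IMQ), a Toll-like receptor agonist cream that causes psoriasis-like inflammation. Ovol1 is a zinc finger protein that regulates transcription in epidermal cells. All mice were of the CD1 strain and 7 to 8 weeks old, and the treated ones had a single application of 62.5 mg of 5% cream to the shaved back. Sorted skin cells were run as 1 droplet library per group: Ovol1 null IMQ with 81 follicle cells, Ovol1 null untreated with 77, Control IMQ with 57 and Control untreated with 52. The labels give neither the number of mice behind a library, nor the part of Ovol1 that was removed, nor the alleles of the controls. With 1 library per group no difference has a replicate check, so no p-value is given and each interval covers counting error only.

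Bulge cells are the slow-cycling stem cells of the hair follicle, and the outer root sheath is the layer of keratinocytes that runs on from them around the hair shaft. Lhx2 and Tbx1 are transcription factors that hold bulge cells in their stem cell state, and Fgf18 is a growth factor that keeps the resting follicle at rest. BMP signals restrain bulge cells, Wnt and Hedgehog signals set off new hair growth, and follicle keratinocytes also make chemokines that draw immune cells to the follicle.

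The summed follicle cell profiles held 669322 UMIs in the Ovol1 null IMQ library, 518197 in Ovol1 null untreated, 237534 in Control IMQ and 428333 in Control untreated. Levels below are UMIs of a gene in 1000000 UMIs of those sums (CPM), and a gene was compared when both libraries together had at least 20 UMIs. The median follicle cell had 5748, 6204, 3265 and 7109 UMIs in Ovol1 null IMQ, Ovol1 null untreated, Control IMQ and Control untreated, so the Control IMQ cells were the shallowest. Ovol1 itself had 22, 4, 11 and 0 UMIs in the follicle cells of those libraries, which is 32.9, 7.72, 46.3 and 0 CPM. By CPM it was thus higher under the Ovol1 null label in untreated skin and lower after IMQ, where most Control IMQ UMIs lay in 1 cell. Without its highest cell in each library it was at 26.9 CPM in Ovol1 null IMQ and 8.42 in Control IMQ. A 3′ tag outside a deleted part would check nothing, so groups are named by label only. Between 36 and 46 kept barcodes were shared by each pair of libraries, but no barcode was a follicle cell in more than 1. Of the 267 cells, 20 also had at least 3 immune, endothelial, melanocyte or skeletal muscle genes, and results that rest on them are given with and without them.

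Of the markers given for these cells, those that were not part of the rule divided. Cd34, a surface protein of mouse bulge cells, was at 100.1 CPM in Ovol1 null IMQ follicle cells, 195 in Ovol1 null untreated, 232 in Control IMQ and 63.0 in Control untreated, against 14.8, 47.8, 31.8 and 49.9 CPM in the other keratinocytes of those libraries. The excess was 4.08-fold to 7.27-fold in 3 libraries and 1.26-fold in Control untreated. With each cell thinned to 2000 UMIs, Cd34 was seen in 17.8%, 21.8%, 32.7% and 10.35% of follicle cells of the 4 libraries, in that order. Fibroblasts held it more often, in 44.9%, 76.2%, 66.0% and 79.9%, and the part of free RNA was not tested. Krt15, a basal and bulge keratin, did not set the cells apart outside Ovol1 null IMQ: it was at 6166, 6183, 5986 and 4900 CPM in follicle cells, against 711, 5390, 5037 and 6450 CPM in other keratinocytes of Ovol1 null IMQ, Ovol1 null untreated, Control IMQ and Control untreated. Fgf18 had only 2, 2, 0 and 3 UMIs there, so Lhx2 and Tbx1 alone chose nearly all cells.

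Over the genome, 343 of 7249 measured genes, 4.73%, were more than 2-fold higher in follicle cells than in other keratinocytes in every library, and 77, or 1.06%, were lower. Of 15 measured outer bulge genes 8 were higher in every library: Nfatc1, Lgr5, Tcf7l2, Runx1, Postn, Dkk3, Ptn and Angptl7. Lgr5, a receptor that marks lower bulge and hair germ stem cells, was at 55.3, 57.9, 33.7 and 39.7 CPM in Ovol1 null IMQ, Ovol1 null untreated, Control IMQ and Control untreated follicle cells, and at 2.36, 3.14, 2.03 and 2.89 CPM in other keratinocytes. Postn, a matrix protein, was at 438, 758, 686 and 392 CPM in the same 4 sets of follicle cells, and at 81.7, 114, 157 and 147 CPM in other keratinocytes. In all 4 libraries both genes were higher in follicle cells, and 96.3% to 98.1% of follicle cells had at least 3 outer bulge genes detected, against 56.8% to 66.2% of other keratinocytes.

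**Figure D1:**
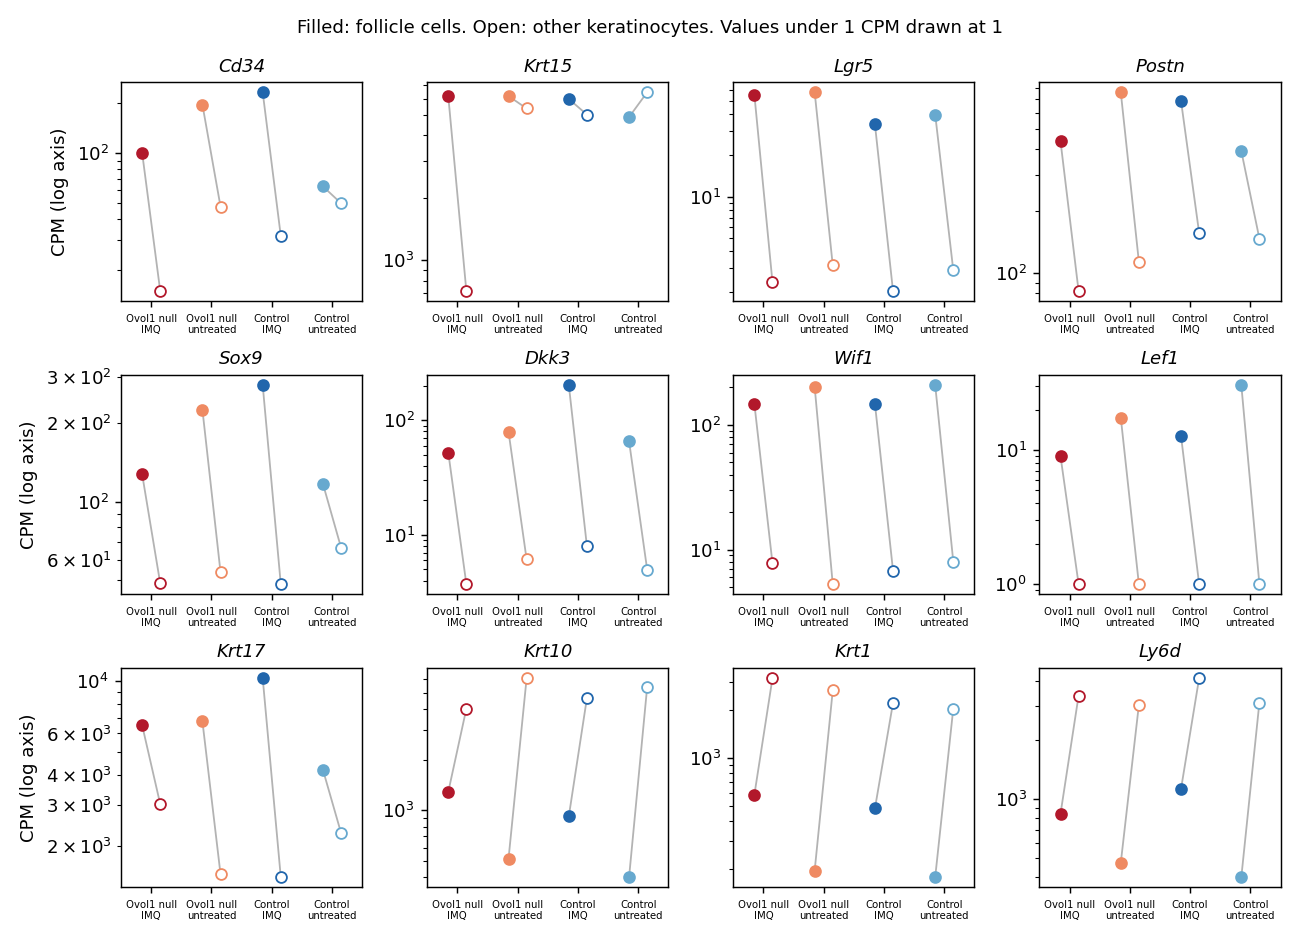
Levels in CPM on log axes of 12 genes in follicle cells (filled) and in other keratinocytes of the same library (open), for the libraries Ovol1 null IMQ, Ovol1 null untreated, Control IMQ and Control untreated. Lgr5, Postn, Dkk3, Wif1 and Lef1 are higher and Krt10, Krt1 and Ly6d lower in follicle cells of every library, while Krt15 is apart only in Ovol1 null IMQ.

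Of 12 measured Wnt genes 4 were higher in every library, namely Fzd3, Dkk3, Wif1 and Tcf7l2. Wif1, a secreted Wnt inhibitor, was at 146, 201, 147 and 208 CPM in follicle cells of Ovol1 null IMQ, Ovol1 null untreated, Control IMQ and Control untreated, which was 18.8-fold to 37.8-fold the level in other keratinocytes. Dkk3, of the Dickkopf family of Wnt modulators, was 13.0-fold to 25.2-fold higher. Of 13 measured BMP and TGF beta genes 6 were higher in every library, namely Smad7, Id1, Id2, Id3, Fst and Tgfb2. Id1, a BMP target, was 5.36-fold to 5.76-fold higher. Fst, which binds activins, was 2.42-fold to 9.38-fold higher, least so in Control untreated. Of 7 measured hair germ genes 3 were higher in every library: Gli1, the Hedgehog target, Lef1, the Wnt effector, and Msx2, a homeobox gene of the growing follicle. The 20 genes with the highest smallest fold were led by Lef1, Mycn, Atp6v1b1 and Ly6h and also held Shisa2, Trib2, Tnfrsf11b and Klf15.

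Surface and secreted signals differed too. Cxcl14, a chemokine of resting epithelium, was at 1303, 1789, 813 and 1153 CPM in follicle cells of Ovol1 null IMQ, Ovol1 null untreated, Control IMQ and Control untreated, against 109, 231, 220 and 265 CPM in other keratinocytes. Cxcl12 and Cd200, an immune inhibitory ligand of bulge cells, were also more than 2-fold higher in every library, and Il34, a growth factor for Langerhans cells, was lower. Of 23 measured immediate early and heat shock genes 9 were higher in every library, among them Fos, Junb and Egr1. Of 8 measured suprabasal genes 6 were lower in every library. Krt10, the keratin of differentiating epidermis, was at 1286, 517, 922 and 402 CPM in follicle cells, and 3.12, 11.8, 5.02 and 13.4 times lower than in other keratinocytes of Ovol1 null IMQ, Ovol1 null untreated, Control IMQ and Control untreated. A single cell held 88.9% of the Krt10 UMIs in Ovol1 null IMQ follicle cells and 68.9% in Control IMQ follicle cells.

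The rule left cells with 2 UMIs of its genes close to the limit. Exactly 2 were held by 47 of 81 follicle cells in Ovol1 null IMQ, 20 of 77 in Ovol1 null untreated, 31 of 57 in Control IMQ and 17 of 52 in Control untreated. Cells with exactly 2 had Lgr5 at 70.4, 72.4, 41.1 and 9.05 CPM in those libraries. Keratinocytes just outside, with 1 UMI, numbered 71, 40, 60 and 41 and had Lgr5 at 24.5, 34.1, 26.5 and 36.3 CPM. Keratinocytes with none had 0.827, 2.096, 1.57 and 0.784 CPM. For Lgr5, cells just outside thus lay between the cells with exactly 2 and those with none in 3 libraries, and above both in Control untreated. Dkk3 in Ovol1 null untreated was at 72.4 CPM with exactly 2, 15.1 just outside and 5.75 with none. Krt79 or Sostdc1 kept out 23, 20, 11 and 23 keratinocytes with at least 2 rule UMIs in the 4 libraries, in the same order. These had Lgr5 at 89.8, 65.9, 0 and 105.3 CPM and Cd34 at 179.6, 420.1, 284.9 and 412.5 CPM. Their Krt15 was at 12407, 12587, 8289 and 17011 CPM. Both Cd34 and Krt15 were higher in them than in the follicle cells of every library.

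Follicle cells made up 4.49% of keratinocytes in Ovol1 null IMQ (95% Clopper-Pearson interval 3.58 to 5.55), 2.71% in Ovol1 null untreated (2.14 to 3.37), 1.95% in Control IMQ (1.48 to 2.52) and 2.60% in Control untreated (1.95 to 3.39). Ovol1 null IMQ had the highest share, and its interval did not overlap the others. Other keratinocytes of that library were also the deepest, with a median of 13802 UMIs. Their medians were 5755, 5667 and 5218 in Ovol1 null untreated, Control IMQ and Control untreated. The follicle cells of Ovol1 null IMQ had a median of 5748 UMIs, and the part of depth in the share was not tested. When the rule genes had also to make 4 UMIs in 10000, the share fell to 2.38% in Ovol1 null IMQ, against 2.11% in Ovol1 null untreated, 1.71% in Control IMQ and 1.70% in Control untreated. Within cells of 4000 to 20000 UMIs it was 5.13% in Ovol1 null IMQ, against 2.81% in Ovol1 null untreated, 0.970% in Control IMQ and 2.65% in Control untreated. With at least 3 UMIs of the rule genes it was 1.88% in Ovol1 null IMQ, 2.01% in Ovol1 null untreated, 0.889% in Control IMQ and 1.75% in Control untreated, so that Ovol1 null IMQ was no longer the highest. The cells had been sorted before loading, so these are shares of sorted cells.

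By the rule genes alone the cells fell into 132 with both Lhx2 and Tbx1, 96 with Lhx2 without Tbx1 and 39 with Tbx1 without Lhx2. The cells with Lhx2 without Tbx1 held more of the outer root sheath keratin Krt17, at 11688, 11387, 18941 and 7788 CPM in Ovol1 null IMQ, Ovol1 null untreated, Control IMQ and Control untreated. Those with Tbx1 without Lhx2 had 1264, 971, 5132 and 1450 CPM, lower in every library. Fst followed the same order in every library and was at 709 against 139 CPM over all libraries. Lgr5 ran the other way, at 13.8, 20.0, 13.2 and 6.32 CPM in cells with Lhx2 without Tbx1 and 139, 88.3, 17.6 and 83.7 CPM in cells with Tbx1 without Lhx2. In Control IMQ these sets held 17 and 11 cells of median 3392 and 4583 UMIs. The Lgr5 levels there rest on few UMIs, and no order is read from 13.2 against 17.6 CPM. Those of Control untreated rest on 21 and 4 cells and likewise on few UMIs. Krt15 was likewise lower in cells with Lhx2 without Tbx1 in every library. Cd34 and Postn did not keep 1 order over the libraries. The smallest of these sets holds 4 cells, Control untreated cells with Tbx1 without Lhx2, so levels there rest on few cells.

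After IMQ the follicle cells of both labels had higher levels of interferon-stimulated genes. Under the Ovol1 null label 11 of 24 listed genes could be measured and all 11 were more than 2-fold higher after IMQ, where 9.34% of the 5642 genes measured were higher and 8.83% lower, 18.2% in all. In control skin 7 were measured and all 7 were higher, where 12.2% of 3809 genes were higher and 9.79% lower, 22.0% in all. Since a gene near 0 in untreated cells is measured only through its level after IMQ, these counts and the median over the measured members are descriptions and support nothing by themselves. The median log2 ratio of the measured members was 4.62 under the Ovol1 null label and 3.25 in control skin, against 0.05 and 0.00 over all measured genes, and it was 5.46 and 4.22 in other keratinocytes.

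Ifi27l2a, an interferon-induced mitochondrial protein, reached 1557 CPM in Ovol1 null IMQ follicle cells against 11.6 in Ovol1 null untreated, and 1166 CPM in Control IMQ against 42.0 in Control untreated. The ratios were 134 (61.6 to 367) and 27.8 (17.2 to 47.5). With each cell thinned to 2000 UMIs, 82.0% of Ovol1 null IMQ follicle cells held an Ifi27l2a UMI, 2.68% of Ovol1 null untreated, 64.8% of Control IMQ and 6.91% of Control untreated, against 29.0%, 0.998%, 41.6% and 2.25% of fibroblasts in those libraries. Both IMQ libraries were high and both untreated ones low, with follicle cells above fibroblasts. Bst2, or tetherin, which holds budding virus at the cell surface, was at 329 CPM in Ovol1 null IMQ against 15.4 in Ovol1 null untreated, and at 240 CPM in Control IMQ against 25.7 in Control untreated.

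Irf7, the factor that amplifies interferon production, was at 108 CPM in Ovol1 null IMQ against 1.93 in Ovol1 null untreated, and at 75.8 CPM in Control IMQ against 7.00 in Control untreated. Isg15, a ubiquitin-like protein, was at 148 CPM in Ovol1 null IMQ against 0 in Ovol1 null untreated, at least 25.6-fold higher against a floor of 3 UMIs, and at 198 CPM in Control IMQ against 11.7 in Control untreated. A single cell held 57.5% of the Control IMQ Isg15 UMIs. The thinned shares of follicle cells with Isg15, 16.4% in Ovol1 null IMQ and 13.3% in Control IMQ, were under the 41.9% and 20.8% of fibroblasts, and Bst2 was likewise seen in more fibroblasts. Fibroblasts of untreated skin already held Bst2 in 18.5% of thinned cells in Ovol1 null untreated and 20.8% in Control untreated, so they are no measure of free RNA for it. The part of free RNA in these levels was not tested.

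**Figure D2:**
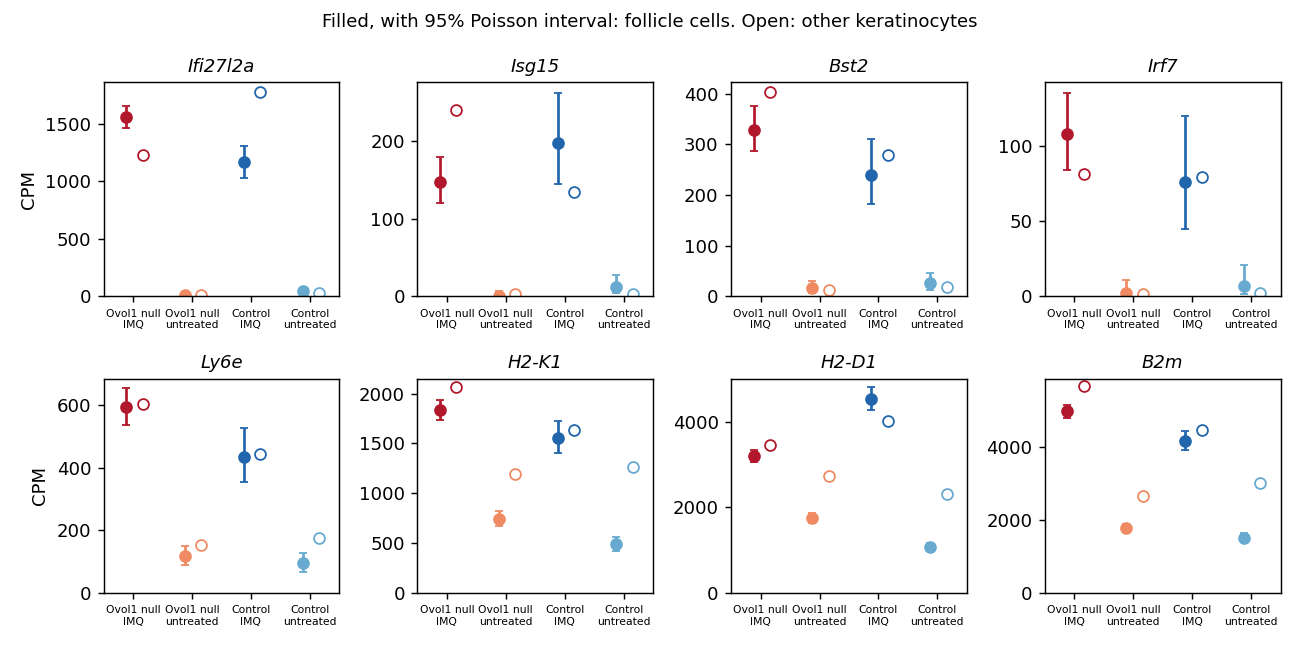
Levels in CPM of 5 interferon-stimulated genes, H2-K1, H2-D1 and B2m in follicle cells (filled, with 95% Poisson intervals) and other keratinocytes (open) of the 4 libraries. Both IMQ libraries lie above both untreated libraries in every panel, and untreated follicle cells lie below untreated other keratinocytes for the last 3 genes.

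Per cell, at least 3 interferon-stimulated genes were detected in 70 of 81 follicle cells in Ovol1 null IMQ, 3 of 77 in Ovol1 null untreated, 30 of 57 in Control IMQ and 10 of 52 in Control untreated. Without the 20 cells that carried genes of other cell types, Ifi27l2a stood at 1582, 8.60, 807 and 32.1 CPM in those libraries. The list then had 10 of 10 measured genes higher under the Ovol1 null label but only 3 of 4 in control skin. Between Ovol1 null IMQ and Control IMQ follicle cells, where 15.0% of 4731 measured genes were higher and 11.0% lower (26.0% in all), the median log2 ratio of the 14 measured members was 0.23. Iigp1, an interferon-inducible GTPase, had 8 UMIs in Ovol1 null IMQ, all in 1 cell, and 20 UMIs in Control IMQ, where 1 cell held 75.0% of them. Scaling by TMM in place of totals shifted the typical gene of that comparison by 0.18 on the log2 scale and raised the share of higher genes among those past 2-fold to 71.1%, against 57.7% with totals.

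The sequences before the start sites of these genes were searched for GAAANNGAAA, the core to which interferon regulatory factors bind, on either strand and with overlaps counted. In windows from 250 bases before to 50 after each start site in RefSeq on GRCm38.p6, 9 of 15 listed genes that matched by symbol held it, or 60.0%, against 3.99% of all 27025 genes. Of the 4 with a window that were higher in both IMQ comparisons, Isg15 and Bst2 held it and Irf7 and Ifi35 did not. A match is a description of the letters and not a bound site. The windows of Isg15 and Bst2 are printed since both genes were higher after IMQ under both labels, and that of Ifit1, which was measured only under the Ovol1 null label, since its matches read on the other strand. Capitals mark the matches, and each sequence runs 5′ to 3′ along the gene. They lie at chr4:156200769-156201068 on the minus strand, chr8:71537423-71537722 on the minus strand and chr19:34640639-34640938 on the plus strand.
Isg15: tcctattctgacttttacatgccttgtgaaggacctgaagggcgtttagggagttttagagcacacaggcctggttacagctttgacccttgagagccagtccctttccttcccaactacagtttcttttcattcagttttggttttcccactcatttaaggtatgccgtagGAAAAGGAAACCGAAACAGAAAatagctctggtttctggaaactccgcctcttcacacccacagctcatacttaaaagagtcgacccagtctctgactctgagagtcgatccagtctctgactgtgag
Bst2: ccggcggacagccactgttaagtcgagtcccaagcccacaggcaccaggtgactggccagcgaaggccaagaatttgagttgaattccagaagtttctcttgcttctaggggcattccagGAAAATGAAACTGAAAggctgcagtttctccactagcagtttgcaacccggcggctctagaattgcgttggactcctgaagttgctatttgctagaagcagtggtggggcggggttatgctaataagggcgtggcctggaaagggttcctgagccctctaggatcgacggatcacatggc
Ifit1: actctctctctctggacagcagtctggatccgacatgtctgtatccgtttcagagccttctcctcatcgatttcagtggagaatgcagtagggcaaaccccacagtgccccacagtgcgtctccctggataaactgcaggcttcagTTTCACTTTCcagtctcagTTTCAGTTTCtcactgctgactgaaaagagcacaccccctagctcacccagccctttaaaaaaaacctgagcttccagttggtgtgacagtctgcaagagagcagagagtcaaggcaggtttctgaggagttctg
Isg15 holds 3 matches that overlap in a single run, Bst2 holds 2 that overlap, and Ifit1 holds 2 that stand apart.

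Several genes of antigen presentation were higher after IMQ as well. Resting bulge cells are known for low class I levels, part of what is called immune privilege. In untreated skin follicle cells had less of it than other keratinocytes: H2-K1, a class I heavy chain, was at 743 CPM in Ovol1 null untreated follicle cells against 1194 in its other keratinocytes, and at 486 CPM in Control untreated follicle cells against 1259. After IMQ the gap was small, with 1832 CPM in Ovol1 null IMQ follicle cells against 2066 in its other keratinocytes, and 1554 CPM in Control IMQ follicle cells against 1631. Among follicle cells H2-K1 was thus 2.46-fold higher in Ovol1 null IMQ than in Ovol1 null untreated (2.20 to 2.77) and 3.20-fold higher in Control IMQ than in Control untreated (2.69 to 3.81).

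B2m, the shared light chain of class I, followed with 4977 CPM in Ovol1 null IMQ against 1770 in Ovol1 null untreated, and 4176 CPM in Control IMQ against 1510 in Control untreated, ratios of 2.81 (2.61 to 3.03) and 2.77 (2.50 to 3.06). H2-D1 was at 3193 CPM in Ovol1 null IMQ against 1743 in Ovol1 null untreated and at 4530 CPM in Control IMQ against 1062 in Control untreated. Of 12 measured genes of the antigen presentation and immune privilege list 7 were higher under the Ovol1 null label, and in control skin 8 were higher and 1, H2-Aa, lower. The shares of all measured genes were 9.34% higher under the Ovol1 null label, and 12.2% higher and 9.79% lower in control skin. The class II genes H2-Aa, H2-Ab1 and Cd74 rested on cells of other types. Without those cells H2-Ab1, among the 7, was at 4.97 CPM in Ovol1 null IMQ against 21.5 in Ovol1 null untreated, and Cd74 was at 29.8, 40.9, 44.5 and 37.4 CPM in Ovol1 null IMQ, Ovol1 null untreated, Control IMQ and Control untreated. The list, which also holds class II genes, summed to more in fibroblasts than in follicle cells of all 4 libraries, at 30303 CPM in fibroblasts in Ovol1 null IMQ, 10349 in Ovol1 null untreated, 30351 in Control IMQ and 9161 in Control untreated, and the part of free RNA was not tested.

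Some keratins of activated skin and alarmins were higher after IMQ. Of the activation keratins 2 of 3 measured, Krt6a and Krt16, were higher under the Ovol1 null label, and both measured, Krt6a and Krt17, in control skin. Among all measured genes 9.34% were higher under the Ovol1 null label and 12.2% in control skin. Krt17 was at 6496 CPM in Ovol1 null IMQ against 6748 in Ovol1 null untreated, and at 10293 CPM in Control IMQ against 4205 in Control untreated. Krt6a, a keratin of the inner bulge and of wounded epidermis, was at 535 CPM in Ovol1 null IMQ follicle cells against 25.1 in Ovol1 null untreated, and at 274 CPM in Control IMQ against 4.67 in Control untreated. The ratios were 21.3 (12.3 to 40.4) and 58.6 (15.6 to 494). Thinned to 2000 UMIs, 32.2%, 4.47%, 37.4% and 2.18% of follicle cells in Ovol1 null IMQ, Ovol1 null untreated, Control IMQ and Control untreated held a Krt6a UMI, against 3.41% of fibroblasts at most. In other keratinocytes Krt6a was at 1248 CPM in Ovol1 null IMQ but only 18.0 in Control IMQ, so in control skin the follicle cells carried far more of it than the rest. Krt16, its partner in wounded epidermis, was at 76.2 CPM in Ovol1 null IMQ and at 0, 0 and 2.33 in Ovol1 null untreated, Control IMQ and Control untreated.

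Of the alarmins all 5 measured were higher under the Ovol1 null label, where 9.34% of all measured genes were higher. In control skin both measured, Lcn2 and Defb6, were higher, where 12.2% of all were. S100a8, S100a9, Lcn2 and Saa3 were detected in 0, 1, 2 and 2 of 77 Ovol1 null untreated follicle cells. The whole list held 8 UMIs in Control untreated. Except for Defb6 under the Ovol1 null label these genes were measured only through their level after IMQ, so the counts support nothing by themselves. S100a8, a calcium-binding protein of inflamed epidermis and neutrophils, was at 801 CPM in Ovol1 null IMQ against 0 in Ovol1 null untreated, and at 8.42 CPM in Control IMQ against 0 in Control untreated. In other keratinocytes it was at 10865 CPM in Ovol1 null IMQ. The thinned share in Ovol1 null IMQ was 26.0% of follicle cells and 25.5% of fibroblasts, so no expression in follicle cells is read from it, and the part of free RNA was not tested. Saa3 and Lcn2, secreted acute phase proteins, were seen in fewer follicle cells than fibroblasts in Ovol1 null IMQ, at 32.2% against 75.1% and 17.0% against 39.1%.

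Genes of cell division differed in level between the IMQ libraries. Of 15 measured S phase genes 12 were more than 2-fold higher in Ovol1 null IMQ follicle cells than in Ovol1 null untreated. Over all measured genes 9.34% were higher and 8.83% lower there. Against Control IMQ 13 of 14 were higher, where 15.0% of all measured genes were higher and 11.0% lower. None was lower in either comparison. The list held 524 UMIs in Ovol1 null IMQ but 41 in Control IMQ, so its genes were measured there mainly through Ovol1 null IMQ. These counts are descriptions and support nothing by themselves. In control skin only 2 S phase genes could be measured, Slbp and Dut, and both were lower after IMQ. Summed over the list, S phase genes made 783 CPM in Ovol1 null IMQ, 330 in Ovol1 null untreated, 173 in Control IMQ and 353 in Control untreated follicle cells, against 705, 341, 261 and 378 CPM in other keratinocytes. At least 3 S phase genes were detected in 25 of 81 follicle cells in Ovol1 null IMQ, 17 of 77 in Ovol1 null untreated, 3 of 57 in Control IMQ and 17 of 52 in Control untreated. By share of cells, 30.9%, 22.1%, 5.26% and 32.7%, Control untreated was the highest and not Ovol1 null IMQ, and Control IMQ, with the shallowest cells, was the lowest by both measures.

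Mcm6, a subunit of the replicative helicase, was at 83.7 CPM in Ovol1 null IMQ, 23.2 in Ovol1 null untreated, 8.42 in Control IMQ and 16.3 in Control untreated follicle cells. It was 3.61-fold higher in Ovol1 null IMQ than in Ovol1 null untreated (1.91 to 7.41). Mcm5, of the same helicase, was at 43.3, 13.5, 0 and 11.7 CPM in those libraries and at least 3.43-fold higher in Ovol1 null IMQ than in Control IMQ. Ovol1 null IMQ was the highest library for both, and the other 3 had 12 UMIs or fewer each. Tyms, the thymidylate synthase, was 2.79-fold higher in Ovol1 null IMQ than in Ovol1 null untreated (1.55 to 5.32).

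G2 and M phase genes came from few cells. All 6 measured ones were higher in Ovol1 null IMQ than in Ovol1 null untreated, where 9.34% of all measured genes were higher. All 5 measured were higher than in Control IMQ, where 15.0% of all were higher. The list held 249 UMIs in Ovol1 null IMQ, 17 in Ovol1 null untreated and 6 in Control IMQ. A gene was thus measured only through Ovol1 null IMQ, and these counts are descriptions that support nothing by themselves. Their list made 372 CPM in Ovol1 null IMQ, 32.8 in Ovol1 null untreated, 25.3 in Control IMQ and 25.7 in Control untreated. At least 3 such genes were detected in 10 of 81, 1 of 77, 0 of 57 and 0 of 52 follicle cells. Top2a, which untangles DNA before mitosis, had 25, 2, 0 and 1 UMIs in 6, 2, 0 and 1 cells. With the rule genes at 4 UMIs in 10000, no S phase gene of 1 measured remained past 2-fold under the Ovol1 null label and no G2 and M phase gene could be measured. At 4000 to 20000 UMIs per cell 5 of 10 S phase genes were higher than in Ovol1 null untreated and 5 of 6 higher than in Control IMQ. The count of higher cell division genes thus depended on how the cells were chosen.

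**Figure D3:**
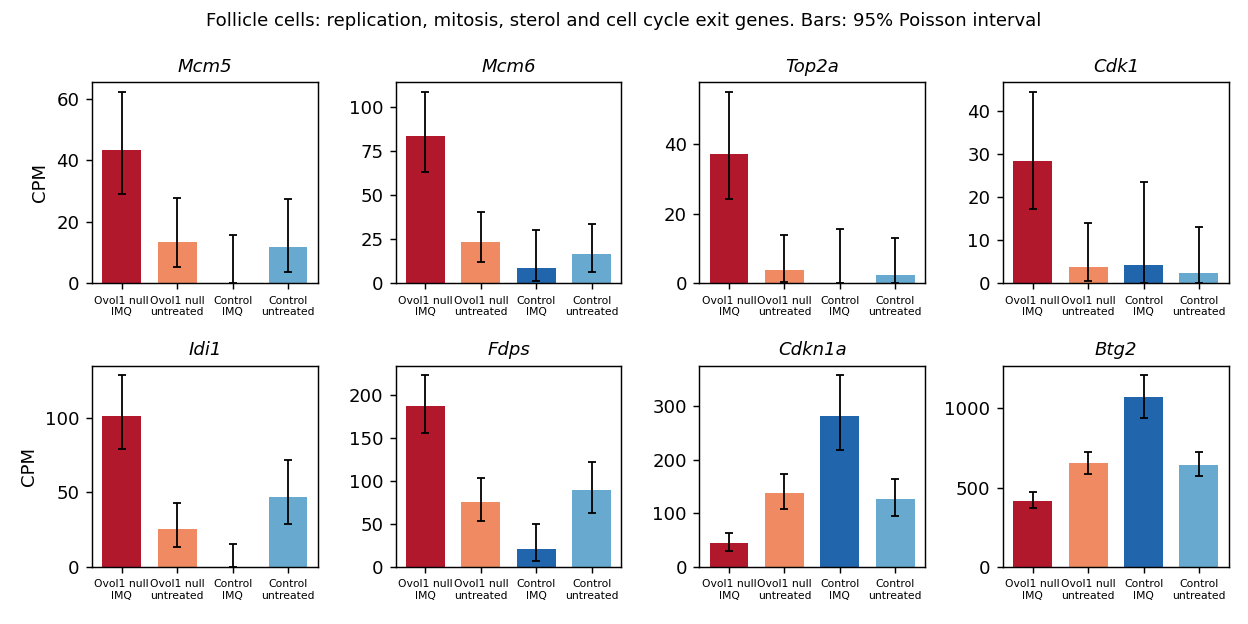
Levels in CPM with 95% Poisson intervals of Mcm5, Mcm6, Top2a, Cdk1, Idi1, Fdps, Cdkn1a and Btg2 in follicle cells of the 4 libraries. The Ovol1 null IMQ bar is the highest for the first 6 genes and the lowest for Cdkn1a and Btg2, for which Control IMQ is the highest.

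Cholesterol synthesis and cell cycle exit genes also differed in level between the IMQ libraries. Of 8 measured cholesterol genes 7 were higher in Ovol1 null IMQ than in Ovol1 null untreated, where 9.34% of all measured genes were higher. Against Control IMQ 6 were higher, where 15.0% of all were. In control skin 1 of 4 was higher and 2 lower, where 12.2% of all were higher and 9.79% lower. The list held 490 UMIs in Ovol1 null IMQ, 140 in Ovol1 null untreated and 53 in Control IMQ. Its genes were thus measured mainly through Ovol1 null IMQ, and these counts are descriptions that support nothing by themselves. Idi1, which makes the isoprenoid building block, was at 102 CPM in Ovol1 null IMQ, 25.1 in Ovol1 null untreated, 0 in Control IMQ and 46.7 in Control untreated follicle cells. It was at least 8.04-fold higher in Ovol1 null IMQ than in Control IMQ. Fdps, the next step, was at 187, 75.3, 21.1 and 88.7 CPM. In both genes Control IMQ was the lowest library and Ovol1 null IMQ the highest, and other keratinocytes had Idi1 in the same order at the top, with 96.2, 30.4, 16.5 and 36.7 CPM.

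Cdkn1a, the p21 inhibitor of cyclin-dependent kinases, was at 43.3 CPM in Ovol1 null IMQ, 137 in Ovol1 null untreated, 282 in Control IMQ and 126 in Control untreated follicle cells. It was 6.51 times lower in Ovol1 null IMQ than in Control IMQ (4.15 to 10.4). Btg2, an antiproliferative gene, was at 417, 652, 1069 and 644 CPM in those libraries and 2.56 times lower in Ovol1 null IMQ than in Control IMQ. Cdkn1b was lower too, so that 3 of 7 measured inhibitors were lower and none higher. In Ovol1 null IMQ against Control IMQ 11.0% of all measured genes were lower and 15.0% higher. Of 13 measured glycolysis and hypoxia genes 7 were higher in Ovol1 null IMQ than in Ovol1 null untreated, among them Ldha, the lactate dehydrogenase, at 642 against 212 CPM. Against Control IMQ 5 of 12 were higher and 2, Bnip3 and Ndrg1, lower. The shares of all measured genes were 9.34% higher against Ovol1 null untreated, and 15.0% higher and 11.0% lower against Control IMQ.

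**Figure D4:**
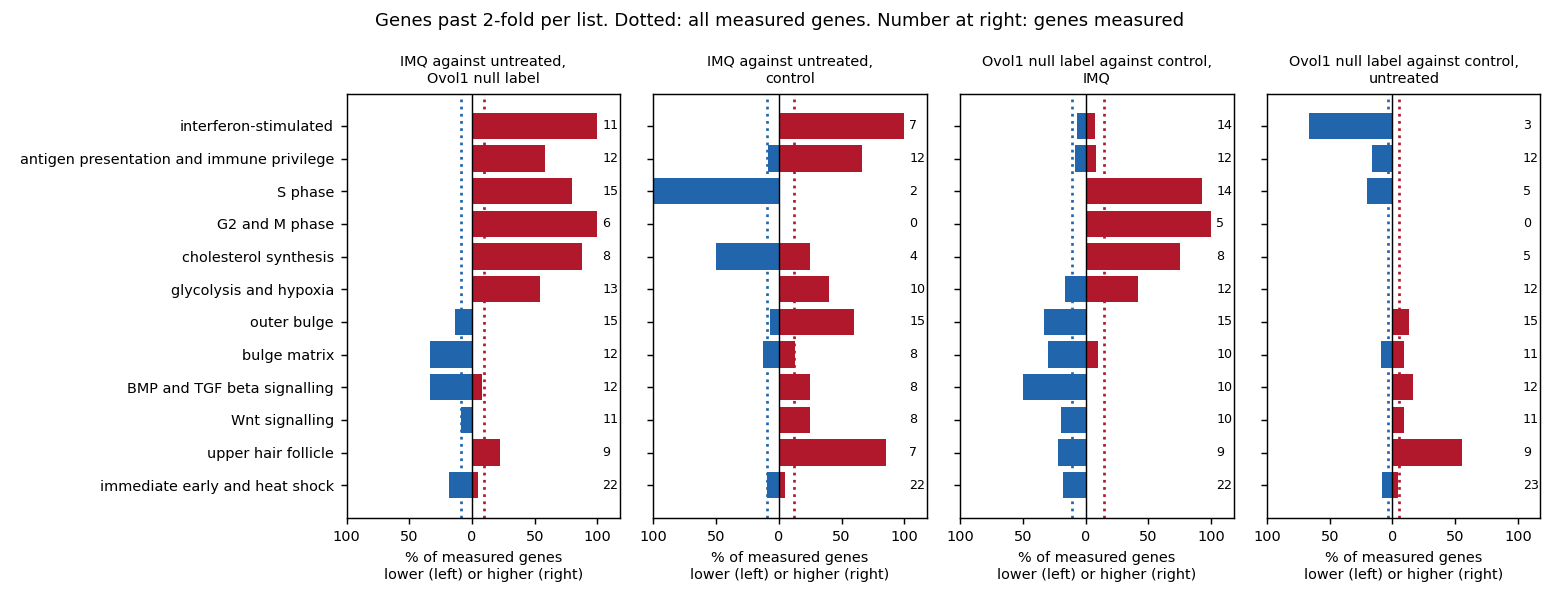
Share of measured genes of 12 lists that were more than 2-fold higher (right) or lower (left) in follicle cells, for the 4 comparisons, with dotted lines for all measured genes and the number measured at the right. Interferon-stimulated genes fill the bar after IMQ under both labels, and the S phase and cholesterol bars reach furthest to the right where Ovol1 null IMQ is compared.

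Hair germ and hair growth genes did not move as a group after IMQ. Of 5 measured under the Ovol1 null label 2, Gli1 and Hoxc13, were lower and 1, Wnt10a, higher, and of 4 in control skin Hoxc13 was lower and Wnt10a higher. Over all measured genes 9.34% were higher and 8.83% lower under the Ovol1 null label, and 12.2% and 9.79% in control skin. Hoxc13, the homeobox gene that switches on hair keratins, was at 1.49 CPM in Ovol1 null IMQ against 94.6 in Ovol1 null untreated, and at 4.21 CPM in Control IMQ against 103 in Control untreated. It was detected in 1 of 81 cells in Ovol1 null IMQ against 21 of 77 in Ovol1 null untreated, and in 1 of 57 in Control IMQ against 20 of 52 in Control untreated. The ratios were 63.3 times lower (10.8 to 2550) and 24.4 times lower (4.16 to 985), each resting on 1 UMI after IMQ. In other keratinocytes and fibroblasts Hoxc13 was near 0, with 2.71 CPM in other keratinocytes at most, so the difference stood against little background.

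Msx2, under the limit of 20 UMIs, had 2 UMIs in Ovol1 null IMQ against 15 in Ovol1 null untreated, and 1 in Control IMQ against 15 in Control untreated. A pair of genes from outside that list is given for the size of their differences. Npnt, or nephronectin, a bulge matrix protein that anchors the arrector pili muscle, was at 8.96 CPM in Ovol1 null IMQ against 61.8 in Ovol1 null untreated, and at 0 CPM in Control IMQ against 140.1 in Control untreated. It was 6.89 times lower (2.84 to 20.2) under the Ovol1 null label and at least 11.1-fold lower in control skin. Cldn10, a tight junction claudin, was at 7.47 CPM in Ovol1 null IMQ against 313 in Ovol1 null untreated, and at 75.8 CPM in Control IMQ against 329 in Control untreated. Msx2, Npnt and Cldn10 were low in both IMQ libraries, with Cldn10 lowest in Ovol1 null IMQ.

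Ptn, the growth factor pleiotrophin, was the single outer bulge gene lower after IMQ under both labels. It was at 483 CPM in Ovol1 null IMQ against 1642 in Ovol1 null untreated, and at 657 CPM in Control IMQ against 1401 in Control untreated, 3.40 and 2.13 times lower. Other keratinocytes had the same order at lower levels, with 62.5 CPM in Ovol1 null IMQ against 167 in Ovol1 null untreated and 74.3 CPM in Control IMQ against 212 in Control untreated. Wnt10a, a ligand expressed as hair growth starts, was higher after IMQ under both labels, at 85.2 against 38.6 CPM for Ovol1 null IMQ and untreated and at 58.9 against 16.3 CPM for Control IMQ and untreated.

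**Figure D5:**
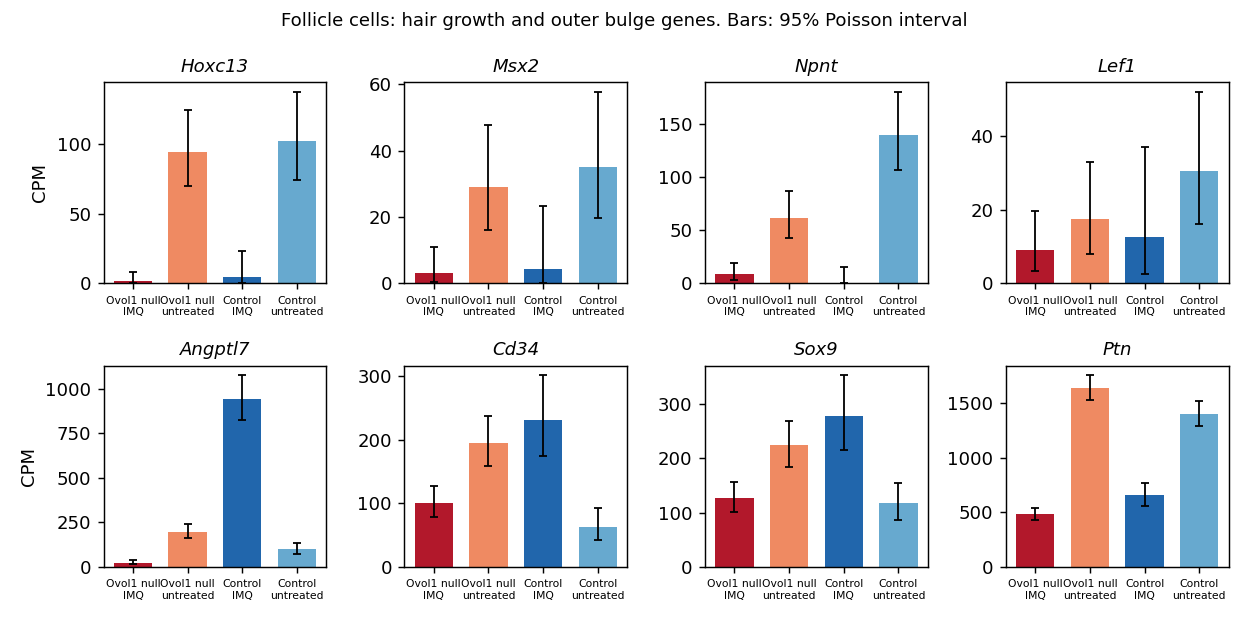
Levels in CPM with 95% Poisson intervals of Hoxc13, Msx2, Npnt, Lef1, Angptl7, Cd34, Sox9 and Ptn in follicle cells of the 4 libraries. Hoxc13, Msx2, Npnt and Ptn are low in both IMQ libraries, while Angptl7 is at 22.4 CPM in Ovol1 null IMQ and 943 CPM in Control IMQ.

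Counts of outer bulge genes past 2-fold after IMQ differed between the labels. In control skin 9 of 15 measured were higher and 1, Ptn, lower, where 12.2% of all measured genes were higher and 9.79% lower. Under the Ovol1 null label none was higher and 2, Ptn and Angptl7, were lower. There 9.34% of all were higher and 8.83% lower, so these counts are not read as a result about the list. Control IMQ held the shallowest cells. Cd34, higher after IMQ in control skin, was at a log2 ratio of -0.23 within cells of 4000 to 20000 UMIs. Angptl7, a secreted protein of bulge cells, was at 22.4 CPM in Ovol1 null IMQ, 195 in Ovol1 null untreated, 943 in Control IMQ and 100.4 in Control untreated follicle cells. It was 8.70 times lower (5.03 to 16.1) after IMQ under the Ovol1 null label and 9.39-fold higher (6.75 to 13.3) in control skin. Thinned to 2000 UMIs, 4.27%, 19.3%, 51.3% and 19.0% of follicle cells held an Angptl7 UMI, against 0.524% of fibroblasts at most. Control IMQ stood far above the other libraries, and Ovol1 null IMQ below them.

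Cd34, Sox9, Dkk3 and Foxc1 were more than 2-fold lower in Ovol1 null IMQ than in Control IMQ as well. Sox9, a stem cell transcription factor of the follicle, was at 127 CPM in Ovol1 null IMQ, 224 in Ovol1 null untreated, 278 in Control IMQ and 117 in Control untreated. These differences were less firm than that of Angptl7. Within cells of 4000 to 20000 UMIs, 5 outer bulge genes of 14 were higher and 3 lower in Ovol1 null IMQ than in Control IMQ, and Cd34 changed sign, with a log2 ratio of 1.24 there. Control IMQ follicle cells were the shallowest and held the most cells of exactly 2 rule UMIs after Ovol1 null IMQ, and the part of this in the result was not tested.

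Ccl27a, a keratinocyte chemokine that draws T cells to the skin, was at 1900 CPM in Ovol1 null IMQ, 1200 in Ovol1 null untreated, 5494 in Control IMQ and 563 in Control untreated follicle cells. It was 9.76-fold higher (8.50 to 11.2) after IMQ in control skin and 2.89 times lower (2.67 to 3.12) in Ovol1 null IMQ than in Control IMQ. In other keratinocytes it was at 229, 3256, 4638 and 2294 CPM, so Ovol1 null IMQ follicle cells kept more of it than the rest of that library. Il31ra, a receptor for the itch cytokine, had 3, 13, 17 and 9 UMIs in follicle cells. Of 10 measured BMP and TGF beta genes 5 were lower and none higher in Ovol1 null IMQ than in Control IMQ. Over all measured genes 11.0% were lower and 15.0% higher there. Among the 5 was Id2, at 129 CPM in Ovol1 null IMQ, 261 in Ovol1 null untreated, 577 in Control IMQ and 297 in Control untreated.

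Krt14, the basal keratin that was also part of the keratinocyte rule, was at 7180 CPM in Ovol1 null IMQ, 2015 in Ovol1 null untreated, 2181 in Control IMQ and 1826 in Control untreated follicle cells. Other keratinocytes had it at 15804, 5572, 6298 and 4848 CPM, with the same library on top.

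In untreated skin the 2 labels differed less. Of 4920 measured genes 5.41% were higher and 3.54% lower, 8.94% in all, under the Ovol1 null label than in control. Hoxc13, Cldn10 and Lgr5 were each within 2-fold. Cd34 was 3.09-fold higher (2.01 to 4.92), and Aldh3a1 4.65-fold higher, the only outer bulge genes of 15 past 2-fold. Summed fibroblast genes were at 2549 CPM in Ovol1 null untreated follicle cells against 1170 in Control untreated. Cd34 was seen in more fibroblasts than follicle cells of both libraries, and the part of free RNA in it was not tested. Of 9 measured upper follicle genes 5 were higher, with Defb6, a defensin of the upper follicle, at 141 CPM in Ovol1 null untreated against 9.34 in Control untreated. Aldh3a1 is on both the outer bulge and the upper follicle list and is counted in each. Krt79 and Sostdc1, on the upper follicle list, are bounded by the rule. Defb6 was seen in 14.9% of thinned Ovol1 null untreated follicle cells and 11.2% of fibroblasts there, close to background.

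Several of the largest untreated differences had another cell type beside them. All 6 measured immune genes were lower in Ovol1 null untreated than in Control untreated, where 5 of 52 follicle cells carried at least 3 immune genes, against 1 of 77 in Ovol1 null untreated. The list held 52 UMIs in Ovol1 null untreated and 422 in Control untreated, so its genes were measured mainly through Control untreated. Among all measured genes 3.54% were lower, and the count of 6 is a description that supports nothing by itself. Acta1, skeletal muscle actin, was at 0 CPM against 1016 in Control untreated, with 99.3% of its UMIs in 1 cell. Fibroblast collagen moved between libraries too: Col1a1 was at 85.2 CPM in Ovol1 null IMQ, 899 in Ovol1 null untreated, 105 in Control IMQ and 397 in Control untreated follicle cells, and in all libraries summed fibroblast genes were far higher in fibroblasts. At least 3 fibroblast genes were detected in 24 of 81, 69 of 77, 11 of 57 and 43 of 52 follicle cells. Baiap2l1, at 151 CPM in Ovol1 null untreated against 2.33 in Control untreated, differed in the same direction in other keratinocytes, by 12.4-fold.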

How the data were processed

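Droplet libraries (10x 3′ chemistry, 1 per group) of sorted back skin cells were analysed from 1 table of UMI counts per gene and barcode, 27998 genes by 23455 barcodes, deposited by the authors; the barcode suffix names the library. The submitters' processing notes name Cell Ranger 2.1.0 and the build mm10. Whether reads were thinned when the libraries were joined, and the annotation release, are not given in the sources used here.

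Follicle cells were chosen by the rule given above, and counts were summed over the follicle cells of a library and divided by their total. A gene was measured at 20 UMIs over both libraries and called past 2-fold. Intervals at 95% are exact (Poisson for levels, conditional binomial for ratios, Clopper-Pearson for shares) and cover counting error only. Log2 ratios added 0.5 UMIs. Against 0 UMIs a floor of 3 UMIs gave the bound. Shares of cells were also taken with each cell thinned to 2000 UMIs, leaving out 8 shallower follicle cells. Doublets were kept; Scrublet (scanpy 1.11.5, expected rate 0.05) served as an alternative, and it marked only 0.113% of Ovol1 null untreated barcodes, so it did not work there. TMM (edgeR 4.0.16) and DESeq2 1.42.0 size factors were scaling alternatives. The summing and calling step was tested on simulated data.

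The text names the rule genes, genes of 30 lists, the 10 genes higher and 10 lower in each comparison whose interval lay farthest from 1, and 20 genes that set the cells apart. The members and lists were chosen with earlier results of these data known. Promoter windows came from RefSeq. Some genes past 2-fold are not reported here. Python 3.11.15 and R 4.3.3 were used.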

Additional observations from a re-analysis of the deposited data

Results flagged for a closer look

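For 14 genes reported here the follicle cells of the Ovol1 null label and of control skin changed more than 2-fold in opposite directions after IMQ. They were sought only among the named genes, which include the top-ranked genes of these same comparisons. The share over all measured genes was not counted, so the number is a description of the named genes only. Each value is the log2 ratio of IMQ to untreated under the Ovol1 null label minus that in control skin. None of these differences was tested, since each arm has 1 library.

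Higher in control skin and lower under the Ovol1 null label were Angptl7 at -6.30, Krt77 at -5.15, Klf2 at -4.61, Aspn at -3.73, Maff at -3.05, Tgfb2 at -3.00, Cdkn1a at -2.81, Klf15 at -2.62 and Ddit4 at -2.51. The other way lay Idi1 at 6.48, Chchd10 at 5.30, Fabp5 at 3.84, Fdps at 3.25 and Cd74 at 2.78. Fabp5, a fatty acid binding protein of activated keratinocytes, was at 400.4 CPM in Ovol1 null IMQ against 92.6 in Ovol1 null untreated, and at 46.3 CPM in Control IMQ against 161 in Control untreated. Without its highest cell in each library it was at 95.6 CPM in Ovol1 null IMQ against 79.1 in Ovol1 null untreated, and at 29.5 CPM in Control IMQ against 63.0 in Control untreated, no longer past 2-fold under the Ovol1 null label. Aspn, a matrix proteoglycan, was at 62.8 CPM in Ovol1 null IMQ against 336 in Ovol1 null untreated, and at 636 CPM in Control IMQ against 255 in Control untreated. Tgfb2 and Klf15 rest on 24 UMIs or fewer in each library. In Control IMQ Idi1 rests on 0 UMIs, Chchd10 on 3, Fdps on 5 and Fabp5 on 11. In Ovol1 null IMQ Krt77 rests on 2 UMIs, Angptl7 on 15 and Maff on 18. Cd74, Klf2 and Krt77 rest on cells that also held genes of other types. Without those cells Klf2 was at 183 CPM in Control IMQ against 104.3 in Control untreated, under 2-fold, and Krt77 at 34.6 CPM in Control IMQ against 45.5 in Control untreated, the other way.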

How the results depend on the processing

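No paired analysis was possible because each group has 1 library. The share of follicle cells (4.49% in Ovol1 null IMQ, 2.71% in Ovol1 null untreated, 1.95% in Control IMQ, 2.60% in Control untreated) moved to 1.88%, 2.01%, 0.889% and 1.75% with 3 rule UMIs, and to 2.27%, 1.20%, 1.23% and 1.35% with no Krt79 or Sostdc1 UMI. With the rule genes at 4 in 10000 it moved to 2.38% in Ovol1 null IMQ, 2.11% in Ovol1 null untreated and 1.70% in Control untreated, and at 4000 to 20000 UMIs to 0.970% in Control IMQ. Leaving out cells of other types or each gene's highest cell was chosen after seeing the data.

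Genes past 2-fold after IMQ under the Ovol1 null label numbered 1025, but 667 with 3 rule UMIs, 486 at 4 in 10000, 582 with no Krt79 or Sostdc1 UMI, 378 when measured at 50 UMIs and 2777 at 5 UMIs. For Ovol1 null IMQ against Control IMQ they numbered 1230, but 660, 477, 608, 467 and 3311 in the same settings. After IMQ in control skin 837 became 497 at 4 in 10000, 280 at 50 UMIs and 3030 at 5 UMIs, and untreated 440 became 109 at 50 UMIs and 2071 at 5 UMIs. The counts follow the number of cells and genes kept.

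Some log2 ratios changed sign, and beyond the cells left out the cause was not tested. After IMQ under the Ovol1 null label Krt1 reached -1.68 and Krt10 -1.43 at 4 in 10000, -2.06 and -1.51 with no Krt79 or Sostdc1 UMI, -2.77 and -1.92 at 4000 to 20000 UMIs, and -1.60 and -1.19 without the highest cell. There Wnt10a was at -0.0561 and Dct at 6.61 at 4 in 10000, Dct at 4.64 with 3 rule UMIs, Nr4a1 at 0.20 with no Krt79 or Sostdc1 UMI, and Cd74 at -0.45 without cells of other types. In control skin, with 3 rule UMIs, the suprabasal median was -0.84, Krt1 -1.16, Krt10 -0.84, Krt77 -0.87, Cd74 3.12 and H2-Aa 1.09. At 4 in 10000 these were -0.68, -0.68, -0.70, -0.85, 2.14 and 1.22, and without cells of other types -0.33, -0.74, -0.51, -0.33, 0.28 and 0.0407. There too Krt1 was at -0.37 with no Krt79 or Sostdc1 UMI and Krt77 at -0.0468 as a mean of each cell's CPM. At 4000 to 20000 UMIs the cholesterol median was 0.0839, Cd34 -0.23 and Myc 0.51. For Ovol1 null IMQ against Control IMQ, Cd34 was at 1.24 at 4000 to 20000 UMIs, Mt4 at 1.34 with 3 rule UMIs and 0.60 without cells of other types, Slbp at -0.0282 with 3 rule UMIs and Mcm7 at -0.0172 as a mean of each cell's CPM. Untreated, Cd74 was at 0.11 without cells of other types.

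Of the results for single genes past 2-fold still measured, 3362 stayed within their counting interval, 348 moved and 38 changed sign, and 334 were no longer past 2-fold. In a further 828 the gene was no longer measured. Depth limits genes with few UMIs, above all in the 57 Control IMQ cells.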
